A study of Mus musculus with 8 samples.

Results

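The genes described here are those of the translation initiation factors, eIF1 to eIF5, in colon tumors and normal colon of mice. They were taken as all probes of the authors' expression table whose gene name in the array files begins with Eif followed by a digit from 1 to 6, with Eif2s3x and Eif2s3y left out. This gave 118 of the 41174 probes in the table and, after names were brought up to date, 51 of 27597 genes. Because the array's names are old, the set also holds the 4 Argonaute genes, which the files call Eif2c1 to Eif2c4, and leaves out 4 genes that today carry Eif names but are filed under older ones. Eif6 is among those 4, so no gene of that factor is in the set. Of the 118 probes, 109 passed the filter on low values, and every one of the 51 genes kept at least 1 of them.

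RNA from 8 samples of adult mice was hybridised to 1-colour Agilent arrays, 1 array per sample. The 4 tumors were colon adenomas of C57BL/6 mice labelled Tcf4Het ApcHet, and the 4 normals were normal colon of C57BL/6 mice labelled TCF4WT ApcHet. Every mouse thus carried the heterozygous Apc change, which the protocol text calls ApcMin, and the animals were littermates whose RNA came from the distal 2.5 cm of the colon. By these genotype labels tumors and normals also differed in Tcf4, so that tissue and Tcf4 genotype cannot be told apart in any difference below. The protocol text, however, speaks of tumors and of 4 animals of each genotype, and whether some tumors were Tcf4 wild type was not settled.

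Initiation factors bring the small ribosomal subunit, the initiator tRNA and the messenger RNA together and find the start codon. eIF2 carries the initiator tRNA with GTP, eIF2B recharges eIF2 with GTP, and 4 kinases (Eif2ak1 to Eif2ak4) shut this cycle down by phosphorylating eIF2 under stress, which favours translation of Atf4. eIF4E binds the cap of the messenger RNA, eIF4G links it to the helicase eIF4A and to eIF3 on the ribosome, and the 4E-binding proteins (Eif4ebp1 to Eif4ebp3) block eIF4E until mTOR phosphorylates them. In the intestine, loss of Apc activates Wnt signalling through TCF factors, and Myc, a target of that pathway, is known to act on genes of ribosomes and translation through the E-box, the letters CACGTG.

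Promoter windows of 300 bases, from 250 bases before to 50 bases after the annotated start in RefSeq (GRCm38.p6), were at hand for 41 of the 51 genes. CACGTG, which reads alike on both strands, was in the windows of 10 of these 41 genes (24.4%), against 8.09% of all 27025 genes with a window. By gene, 2 of the 10 members that rose in tumors and have a window held one, as did 8 of 29 that did not pass the test and none of the 2 that fell. The stretches below show the members that rose and hold the letters, Eif4e at chr3:138527018-138527070 and chr3:138527179-138527234 (plus strand) and Eif4a1 at chr11:69672582-69672637 (minus strand). They are set beside Eif5a at chr11:69921430-69921485 (minus strand) and Eif4g1 at chr16:20672648-20672703 (plus strand), which hold the letters and did not pass the test. Capitals mark the E-box. The 2 E-boxes of Eif4e lie 228 and 64 bases before the start, that of Eif4a1 189, the one shown for Eif5a 74 and the one shown for Eif4g1 54. Eif4g1 holds another 15 bases after the start, and Eif5a another 178 bases before a different annotated start.
Eif4e, first: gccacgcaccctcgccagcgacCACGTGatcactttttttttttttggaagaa
Eif4e, second: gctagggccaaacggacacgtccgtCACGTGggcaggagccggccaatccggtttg
Eif4a1: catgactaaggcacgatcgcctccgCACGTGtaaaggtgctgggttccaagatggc
Eif5a: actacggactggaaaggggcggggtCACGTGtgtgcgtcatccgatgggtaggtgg
Eif4g1: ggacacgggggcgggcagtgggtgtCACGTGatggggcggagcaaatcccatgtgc

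By count, the E-box was no more frequent among the members that rose than among those that did not pass. The other motifs searched, on both strands, were TGATGNAA, the element read by ATF4 with its partners, and CTTTGAT, read by TCF factors. Neither occurred in a window of the 41 members, while 4.51% and 4.29% of all genes held them. These are matches of letters in 1 window per start, and bear on no factor's binding.

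All levels below are log2 intensities of the authors' normalised table, 1 probe per gene (the brightest that passed the filter), and all differences are tumor minus normal on that log2 scale, so that 1 is a doubling. Adjusted p-values come from limma, with Benjamini-Hochberg adjustment over the 21638 genes tested, and a gene is said to have risen or fallen where that p is under 0.05. Over all probes of the table, the 8 columns had the same median (8.51) and 75th percentile (11.40). When the columns were set against the scanner files, 4 of the 8 could be traced to a file and only 1 of these, tumor 1, to the file of its own sample. The column of tumor 2 matched the file of normal 4, so the mismatch crossed the tissue labels. The columns of normals 1 and 2 matched the files of normals 2 and 3. Groups follow the column labels here, and which assignment is right was not settled. Same-numbered samples varied together in each of the 4 pairs, but tumors 1 and 4 varied slightly more closely with normals 3 and 2 than with their own numbers. A fit with the number as a block is given beside the calls. Normal 3 stood apart from the other normals. Its small intestine markers averaged 11.57 against 8.78 to 9.70 in the other normals, and its neutrophil markers 10.31 against 6.42 to 8.46.

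Of the 51 members, 13 rose in tumors, 3 fell and 35 did not pass the test. Over all genes tested, 7.00% rose and 7.54% fell, against 25.5% and 5.88% of the members. The members' median difference was 0.23 and that of all genes 0.15. Without the Argonautes the members' median was 0.25. Differences were above 0 for 36 of 51 members (70.6%) and for 57.9% of all genes. The groups did not overlap in 20 members with tumors higher (39.2%, against 11.9% of all genes) and in 3 with tumors lower (5.88%, against 11.9%). All 16 members that passed had groups apart, which by itself gives the same sign in 4 of 4 same-numbered pairs.

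Changes were modest, from 0.43 to 0.88 among the members that rose, and the number of calls changed with the sample left out and with the scaling. With the replicate block, 2 members rose (Eif2s1 and Eif4e3; all genes, 3.60%) and 1 fell (Eif2ak1; all genes, 5.03%), where 8.64% of all genes passed in either direction. After each column was centred on its own median over the 21638 genes tested, which took the median of all genes from 0.15 to 0.02, 1 member rose (Eif2s1; all genes, 4.96%) and 3 fell (all genes, 9.32%), with all 16 in the same direction. Over all genes that centring turned the split from 1515 higher and 1632 lower to 1073 and 2016. Leaving out tumors 1 to 4 in turn left 1, 0, 0 and 3 members higher (all genes, 1.81%, 0.915%, 0.0739% and 3.92%) and 0, 0, 0 and 2 lower (all genes, 2.14%, 0.836%, 0.0231% and 4.69%). Leaving out normals 1, 2 and 4 left 1, 1 and 0 higher (all genes, 1.48%, 1.70% and 0.499%) and none lower (all genes, 1.08%, 1.16% and 0.240%), whereas without normal 3 there were 21 higher and 7 lower (all genes, 31.7% and 19.8%). In those 8 fits the 16 members kept their direction, which groups that do not overlap ensure by themselves. All 16 passed without normal 3, 11 of them in that fit alone, 4 in 1 more and Eif2s1 in 5 of the 8. In the scanner files as filed under each sample, no member and none of the 21638 genes passed in limma (0 members and 409 genes at an unadjusted p under 0.05), and 9 of the 16 had the same direction as in the table.

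**Figure D1:**
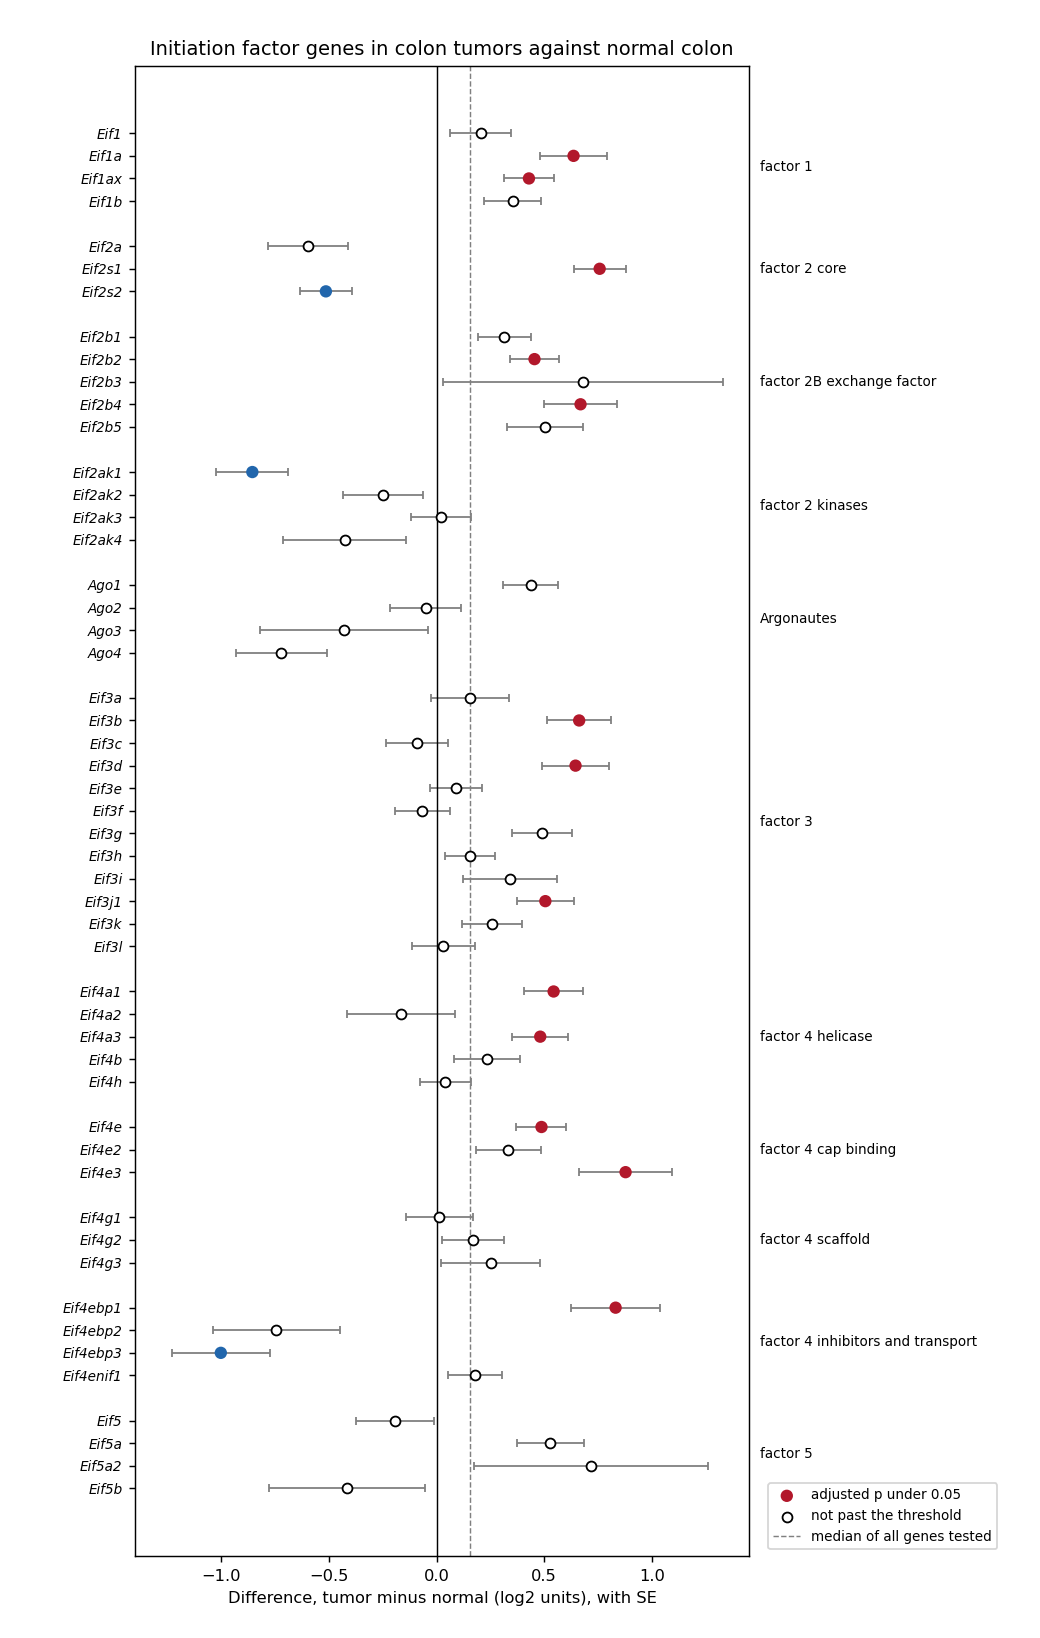
Difference between the 4 tumors and the 4 normals (tumor minus normal, log2 units, with its SE) for the 51 initiation factor genes, in groups by role. Filled points passed the test (red higher, blue lower), open points did not, and the dashed line is the median of all genes tested, 0.15. The 13 red points lie between 0.43 and 0.88 and the 3 blue points between -0.51 and -1.0, directions that hold for all 16 after centring and for 9 of 16 in the scanner files as filed.

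The core of eIF2 moved in opposite directions. Eif2s1, the alpha subunit that carries the regulatory phosphorylation site, measured 14.77, 14.93, 14.81 and 14.62 in tumors 1 to 4 and 14.06, 14.02, 14.07 and 13.94 in normals 1 to 4 (probe at chr12:79803741-79803800, mm8). Every tumor was above every normal, with a gap wider than the spread in either group. Eif2s1 rose by 0.76 ± 0.12 (SE, n = 4 and 4; 1.69-fold), with an adjusted p of 0.0167 and, with the replicate block, of 0.0427. A second probe of the gene (chr12:79804244-79804303), also past the threshold over all kept probes, gave 0.86 ± 0.14.

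Eif2s2, the beta subunit, went the other way. It measured 16.47, 16.56, 16.54 and 16.54 in tumors 1 to 4 and 17.16, 17.16, 16.89 and 16.95 in normals 1 to 4 (chr2:154564125-154564184, mm8). The tumors lay within 0.1 of each other and below all normals, and normals 3 and 4 were the nearest to them. Eif2s2 fell by 0.51 ± 0.12, or 1.43-fold (adjusted p = 0.0338; 0.0739 in the blocked fit). Its other 2 probes that passed the filter were lower too, by -0.29 and -1.61, without passing the test. Taken within each sample and relative to the mean of the normals, the Eif2s1 level minus the Eif2s2 level was 1.32, 1.39, 1.28 and 1.1 in the tumors and -0.08, -0.12, 0.20 and 0.01 in the normals, a pair chosen after their values were seen. Eif2a, a separate protein able to deliver initiator tRNA, differed by -0.60 ± 0.19 and did not pass (adjusted p = 0.0699), with normal 3 at 12.12 and the other normals at 12.63 to 12.80. The gamma subunit's genes were left out by the rule.

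All 5 subunits of eIF2B, the exchange factor that recharges eIF2, had differences above 0, and 2 of them rose. Eif2b4, the delta subunit, measured 14.59, 14.83, 14.49 and 14.37 in tumors 1 to 4 and 13.85, 13.88, 14.22 and 13.66 in normals 1 to 4 (chr5:31464235-31464294, mm8). Normal 3 came within 0.2 of the lowest tumor, and the other normals lay well below. Eif2b4 rose by 0.67 ± 0.17 (1.59-fold; adjusted p = 0.0401; 0.0665 in the blocked fit), and its second probe differed by 0.17. Eif2b2, the beta subunit, measured 15.33, 15.50, 15.32 and 15.27 in tumors 1 to 4 against 14.88, 14.95, 14.92 and 14.87 in the normals (chr12:86115446-86115505, mm8), a narrow spread in both groups. Eif2b2 rose by 0.45 ± 0.11 (1.37-fold; adjusted p = 0.0386; 0.0766 in the blocked fit).

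Among the 3 eIF2B subunits that did not pass, Eif2b1 had the smallest difference of the group, 0.31 ± 0.12 with the groups apart (adjusted p = 0.12), and Eif2b5, which holds the catalytic domain, differed by 0.50 ± 0.17 with normal 3 at 13.09 just above tumor 1 at 13.07. Eif2b3 had the largest difference, 0.68, but its probe was dim: the level was 3.13 in normal 1 and 5.57 to 6.21 in the other 7 samples, around the detection limit of 5.59, and the SE was 0.65.

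The eIF2 kinases showed 1 fall and no rise. Eif2ak1, the heme-regulated kinase, measured 10.30, 10.37, 10.25 and 10.44 in tumors 1 to 4 and 11.25, 11.35, 10.77 and 11.41 in normals 1 to 4 (chr5:144155498-144155557, mm8). All tumors were below all normals, and normal 3 lay between the tumors and the other 3 normals. Eif2ak1 fell by 0.86 ± 0.17, or 1.81-fold, with an adjusted p of 0.0222 and of 0.0444 in the blocked fit. All 4 of its probes were lower in tumors, by -0.37 to -1.32, and the one used here passed over all kept probes. The remaining kinases did not pass. Eif2ak4, which senses uncharged tRNA, differed by -0.43 ± 0.28, with normal 3 at 9.37 and the other normals at 10.37 to 10.54. Eif2ak2, the kinase activated by double-stranded RNA, differed by -0.25 ± 0.19, and Eif2ak3, the kinase of endoplasmic reticulum stress, by 0.02 ± 0.14, a value whose sign turned to -0.11 after centring. A second, dimmer probe of Eif2ak3 gave -1.17 ± 0.89, and the other probes of Eif2ak4 gave -1.13 and 0.23.

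**Figure D2:**
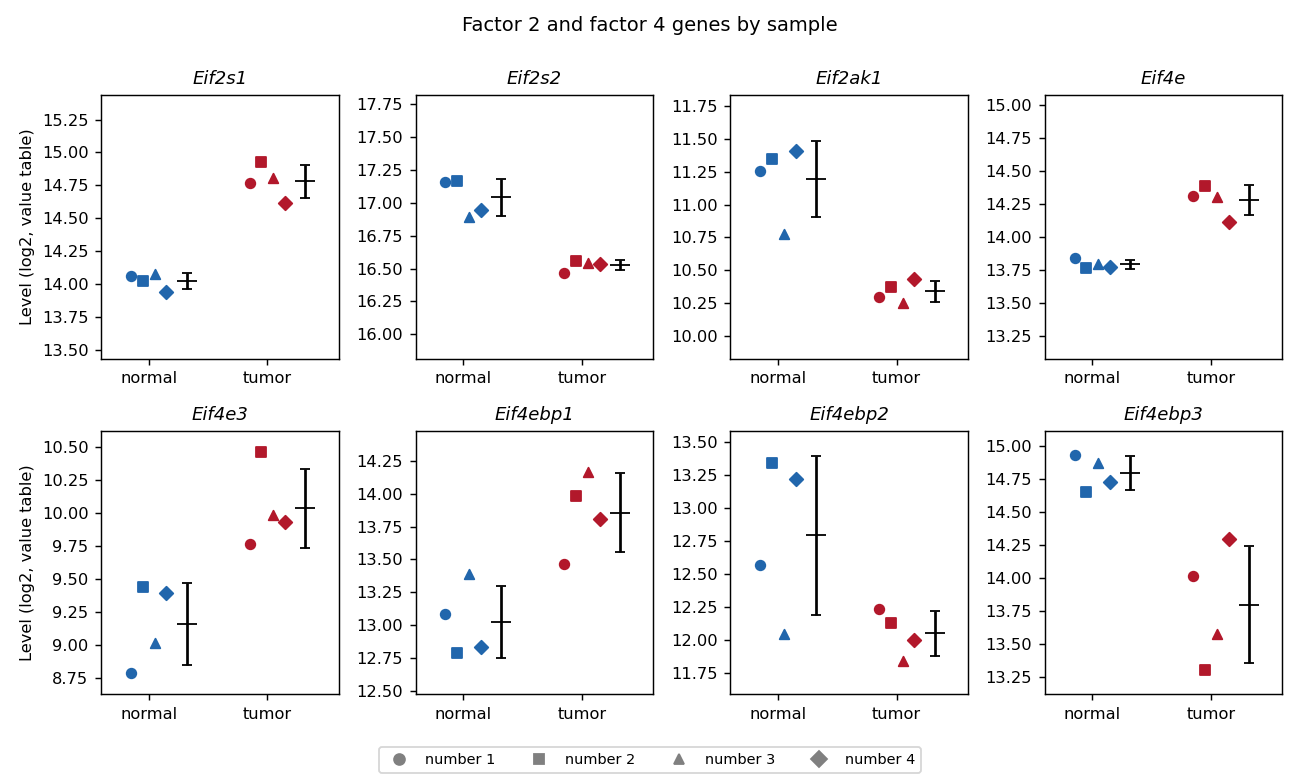
Level (log2, authors' table) of 8 eIF2 and eIF4 genes in each normal (blue) and tumor (red) sample, with marker shapes for the sample number and bars for the mean ± SD of 4. Each panel spans 2 log2 units. Eif2s1, Eif4e, Eif4e3 and Eif4ebp1 lie higher in the tumors and Eif2s2, Eif2ak1 and Eif4ebp3 lower, without overlap, directions that also held after centring (Eif2s1 and Eif4e turned in the scanner files as filed), while for Eif4ebp2 normal 3 lies among the tumors.

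eIF1 and eIF1A keep the scanning ribosome open until it meets the start codon, and all 4 of their genes had differences above 0. Eif1a measured 13.73, 13.78, 13.63 and 13.26 in tumors 1 to 4 and 13.02, 13.09, 12.90 and 12.86 in normals 1 to 4. Tumor 4 was the lowest tumor and still above every normal. Eif1a, on chromosome 18, rose by 0.64 ± 0.15 (1.55-fold; adjusted p = 0.0356; 0.0536 in the blocked fit). Another probe on that chromosome differed by 0.41. A probe that carries the gene's name but is placed on another chromosome (chr12:88406395-88406454, mm8) differed by 0.53. Whether that probe reads Eif1a was not tested.

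Eif1ax, which the files call Eif1ay and which encodes a near-identical protein from the X chromosome, measured 15.54, 15.50, 15.53 and 15.40 in tumors 1 to 4 and 15.14, 14.94, 15.17 and 15.00 in the normals (chrX:154729668-154729727, mm8). It rose by 0.43 ± 0.12 (1.35-fold; adjusted p = 0.049; 0.0858 in the blocked fit). Its second, dimmer probe (chrX:154731218-154731277) had the opposite sign, -0.16 ± 0.15, which makes Eif1ax the one member among those called whose probes disagreed in sign. Whether the Eif1a and Eif1ax probes each read 1 transcript was not tested. Eif1 itself had the smallest difference of the group, 0.20 ± 0.14 (adjusted p = 0.29).

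eIF3, the largest initiation factor, is the platform on which the other factors meet the ribosome, and 3 of its 12 subunit genes in the set rose, none fell and 9 did not pass. The files carry these genes under the older Eif3s names. Eif3b, a core subunit that holds the complex together, measured 15.75, 16.17, 15.72 and 15.68 in tumors 1 to 4 and 15.04, 15.23, 15.21 and 15.19 in the normals (chr5:140695727-140695786, mm8). Tumor 2 stood above the other tumors, which were within 0.1 of each other. Eif3b rose by 0.66 ± 0.15 (1.58-fold; adjusted p = 0.0302; 0.0561 in the blocked fit).

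Eif3d, a subunit that can itself bind the cap, measured 14.85, 15.21, 15.04 and 14.96 in tumors 1 to 4 and 14.34, 14.21, 14.69 and 14.23 in normals 1 to 4 (chr15:77786828-77786887, mm8), with normal 3 the nearest to the tumors. It rose by 0.65 ± 0.16 (1.56-fold; adjusted p = 0.0358; 0.0692 in the blocked fit). Eif3j1, a loosely held subunit near the decoding site, measured 14.45, 14.76, 14.53 and 14.35 in tumors 1 to 4 and 13.97, 14.07, 13.97 and 14.06 in the normals (chr2:121744352-121744411, mm8). The normals were tightly grouped and all below the tumors. Eif3j1 rose by 0.51 ± 0.13 (1.42-fold; adjusted p = 0.0427; 0.0769 in the blocked fit). Its other 2 probes were also higher, by 0.37 and 0.70.

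Rises in eIF3 were not shared by all subunits. The remaining 9 ran from -0.09 for Eif3c to 0.49 for Eif3g, and Eif3l had the smallest difference, 0.03 ± 0.15, which turned to -0.10 after centring. Eif3g, Eif3h and Eif3k had every tumor above every normal without passing the test, at 0.49 ± 0.14 (adjusted p = 0.0537), 0.16 ± 0.12 and 0.26 ± 0.14. The median over the 12 subunits was 0.21, against 0.15 for all genes.

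The helicase eIF4A unwinds the leader of the messenger RNA, helped by Eif4b and Eif4h. Eif4a1, its main form, measured 17.00, 17.34, 17.15 and 17.11 in tumors 1 to 4 and 16.69, 16.51, 16.77 and 16.46 in normals 1 to 4 (chr11:69483293-69483352, mm8). The groups were apart, with normal 3 the highest normal. Eif4a1 rose by 0.54 ± 0.14 (1.46-fold; adjusted p = 0.0401; 0.0826 in the blocked fit), and its other 2 probes differed by 0.26 and 0.45.

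Eif4a3, a relative that serves in the exon junction complex, measured 14.39, 14.42, 14.51 and 14.27 in tumors 1 to 4 and 13.97, 13.86, 14.10 and 13.75 in normals 1 to 4 (chr11:119109689-119109748, mm8). It rose by 0.48 ± 0.13 (1.40-fold; adjusted p = 0.0479; 0.0699 in the blocked fit). Eif4a2, the paralog of Eif4a1, was named after its values were seen. Its level was 15.40, 15.37, 14.91 and 15.30 in the tumors and 15.45, 15.70, 14.74 and 15.74 in the normals, so that the groups overlapped and the difference of -0.16 ± 0.25 did not pass. Eif4h had the smallest difference of the group, 0.04 ± 0.12, which turned to -0.09 after centring.

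Of the 3 cap-binding genes, 2 rose. Eif4e, the cap-binding protein of most initiation, measured 14.31, 14.39, 14.30 and 14.12 in tumors 1 to 4 and 13.84, 13.76, 13.79 and 13.78 in normals 1 to 4 (chr3:138493659-138493718, mm8). The normals spanned less than 0.1 and no tumor came near them. Eif4e rose by 0.49 ± 0.12 (1.40-fold; adjusted p = 0.0342; 0.074 in the blocked fit). A second probe (chr3:138494143-138494202) gave 0.57 ± 0.14 and also passed over all kept probes.

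Eif4e3, a divergent cap-binding relative, had the largest rise of all members. It measured 9.77, 10.47, 9.98 and 9.93 in tumors 1 to 4 and 8.79, 9.44, 9.02 and 9.39 in normals 1 to 4 (chr6:99592461-99597723, mm8). Samples numbered 2 were the highest of each group. Eif4e3 rose by 0.88 ± 0.22 (1.84-fold), with an adjusted p of 0.0379 and of 0.0438 in the blocked fit, and its second probe by 1.07 ± 0.17. Eif4e2, a cap-binding relative known for repressing translation, differed by 0.33 ± 0.15 and did not pass (adjusted p = 0.167), with normal 3 and tumor 4 both at 14.37.

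The scaffold eIF4G did not pass in any of its 3 genes. Differences were 0.01 ± 0.15 for Eif4g1, the main scaffold, whose sign turned to -0.12 after centring, 0.17 ± 0.14 for Eif4g2, which lacks the eIF4E-binding part, and 0.25 ± 0.23 for Eif4g3. Their other probes that passed the filter gave 0.42 for Eif4g1, -0.35, -0.0040 and -0.00057 for Eif4g2, and 0.068 for Eif4g3. The level of Eif4g1 was 13.35, 13.90, 13.65 and 13.78 in the tumors and 13.61, 13.78, 13.54 and 13.69 in the normals, with tumor 1 the lowest of all and the other tumors spread over the normals.

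The 3 genes of 4E-binding proteins, which compete with eIF4G for eIF4E, did not move as one. Eif4ebp1 measured 13.47, 13.99, 14.17 and 13.80 in tumors 1 to 4 and 13.09, 12.79, 13.39 and 12.83 in normals 1 to 4 (chr8:28741351-28741410, mm8). Normal 3 lay just under tumor 1, and the rest were well apart. Eif4ebp1 rose by 0.83 ± 0.21 (1.78-fold; adjusted p = 0.0384; 0.0561 in the blocked fit), and a second, dimmer probe differed by 0.52.

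Eif4ebp3, on chromosome 18, had the largest change of all members. It measured 14.02, 13.30, 13.57 and 14.29 in tumors 1 to 4 and 14.93, 14.66, 14.87 and 14.73 in normals 1 to 4. Tumors 2 and 3 were the lowest, and tumor 4 was the nearest to the normals. Eif4ebp3 fell by 1.0 ± 0.23, or 2.0-fold (adjusted p = 0.0309; 0.0526 in the blocked fit), and 2 overlapping probes gave the same value. Eif4ebp2 measured 12.23, 12.12, 11.84 and 12.00 in tumors 1 to 4 and 12.57, 13.34, 12.05 and 13.22 in normals 1 to 4. Normal 3 lay among the tumors. The difference of -0.75 ± 0.30 did not pass (adjusted p = 0.129). Without normal 3 it was -0.99 (adjusted p = 0.0141), in a fit where 51.5% of all genes passed. In the other fits that left out 1 sample, the adjusted p was 0.170 to 0.285.

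Set against each other within a sample and relative to the normals' mean, a description of pairs chosen after their values were seen, the Eif4ebp1 level minus the Eif4ebp3 level was 1.22, 2.46, 2.37 and 1.29 in tumors 1 to 4 and -0.07, -0.09, 0.29 and -0.12 in normals 1 to 4. The same quantity for Eif4e minus Eif4ebp3 was 1.30, 2.09, 1.74 and 0.83 in the tumors and -0.09 to 0.11 in the normals. The cap-binding protein and 1 of its inhibitors were thus higher, and another inhibitor lower, in each of the 4 tumors. Eif4enif1, which carries eIF4E into the nucleus, had the smallest difference of this group, 0.18 ± 0.13, with the normals at 11.39 to 11.40 and tumor 2 at 11.82. Its other, dimmer probe that passed the filter gave -0.49 ± 0.18.

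**Figure D3:**
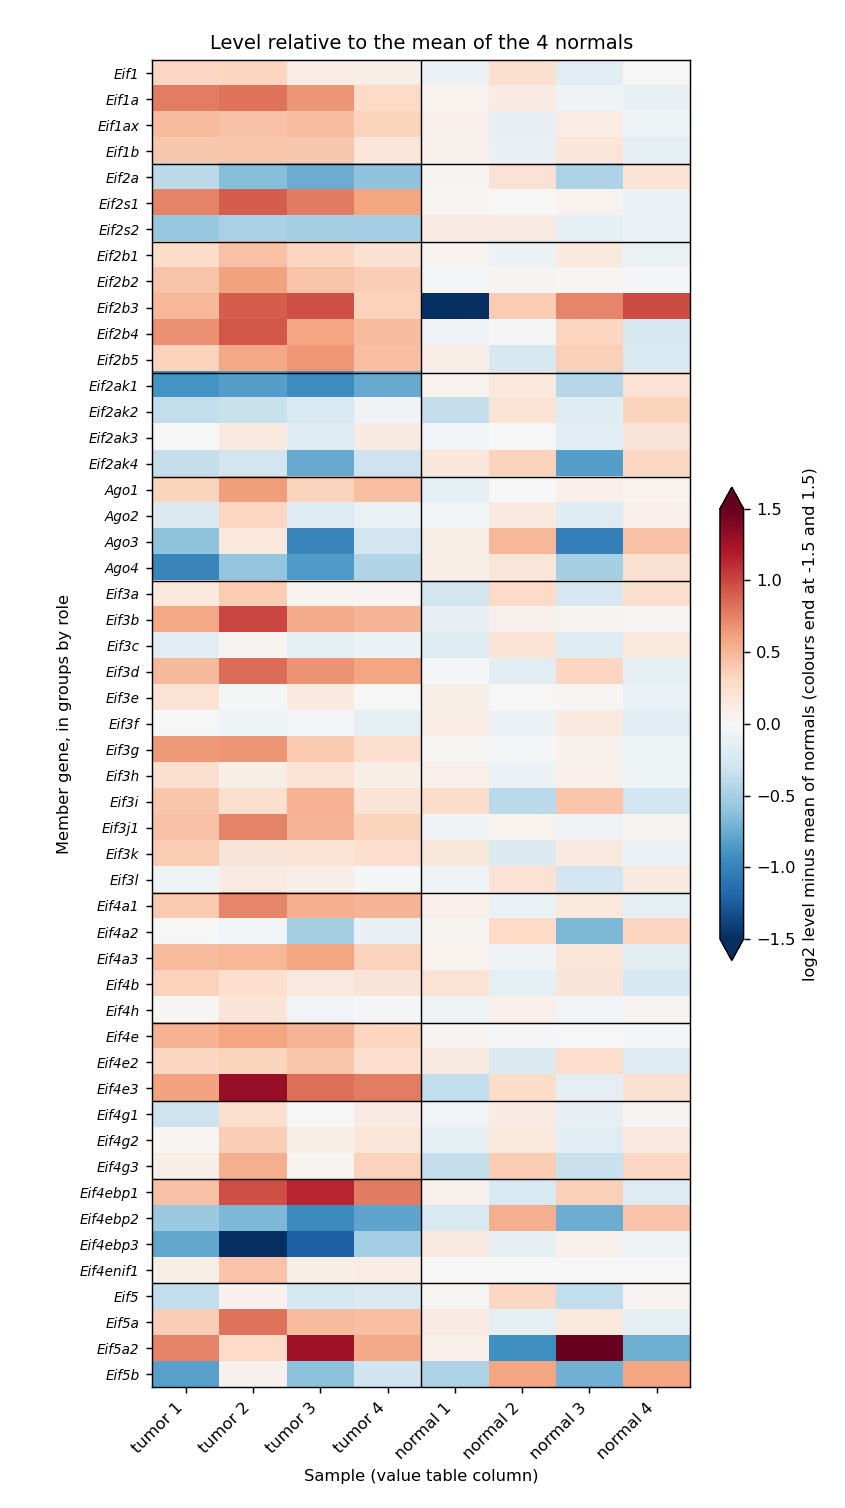
Level of each of the 51 initiation factor genes in each sample minus the mean of the 4 normals (log2 units, red above and blue below, colours ending at -1.5 and 1.5), in groups by role. The tumor columns are mostly red in eIF1, eIF2B and the cap-binding group. Normal 3 was the normal nearest to the tumors in 29 of the 51 genes, a count that was not made over all genes.

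No gene of the eIF5 group passed. Eif5a, which despite its name also acts in elongation, was named after its values were seen: it measured 15.58, 16.03, 15.68 and 15.66 in tumors 1 to 4 and 15.33, 15.08, 15.37 and 15.06 in the normals, with the groups apart and a difference of 0.53 ± 0.15 (adjusted p = 0.0578). Its paralog Eif5a2 had the largest difference, 0.72, but normal 3 at 11.75 was above every tumor and the other normals lay at 9.26 to 10.25 (adjusted p = 0.332). Without normal 3 the Eif5a2 difference was 1.24 (adjusted p = 0.0201), in a fit where 51.5% of all genes passed. In the other fits that left out 1 sample, its adjusted p was 0.332 to 0.614. Eif5, which triggers GTP hydrolysis by eIF2, had the smallest difference of the group, -0.19 ± 0.18.

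The Argonautes, proteins that carry microRNAs and that only share an old name with the factors, held no gene that passed. Ago4 had the largest difference, -0.72 ± 0.21 (adjusted p = 0.0585), with tumor 4 at 10.43 level with normal 3 at 10.39. Ago2 had the smallest, -0.05 ± 0.16, while its other, dimmer probes that passed the filter gave -0.63 and -0.54. The 4 genes that carry Eif names today but are filed under older ones, and so are no members, did not pass either. Their differences were 0.17 for Eif6, 0.17 for Eif3m, 0.33 for Eif2d and 0.62 for Eif1ad.

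Several probes per gene allowed a check within the arrays. Of the 35 members with more than 1 probe that passed the filter, 24 had the same sign on all of them and 11 did not. Of the 14 called members with several such probes, 13 had 1 sign throughout, the exception being Eif1ax. The probe that made the call is among those of each gene. The probes of Eif4ebp3 overlap, and an Eif1a probe is placed on chromosome 12, so these are not all independent readings. How often probes shared a sign over all genes was not counted. No member had probes called in opposite directions. Counted over probes, 14 of 109 passed higher and 4 lower (all kept probes, 5.62% and 7.83%). One Eif3c probe, named after its values were seen, read 3.26 in normal 2 and 15.99 to 16.38 in the other normals, and is not the probe used for the gene.

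**Figure D4:**
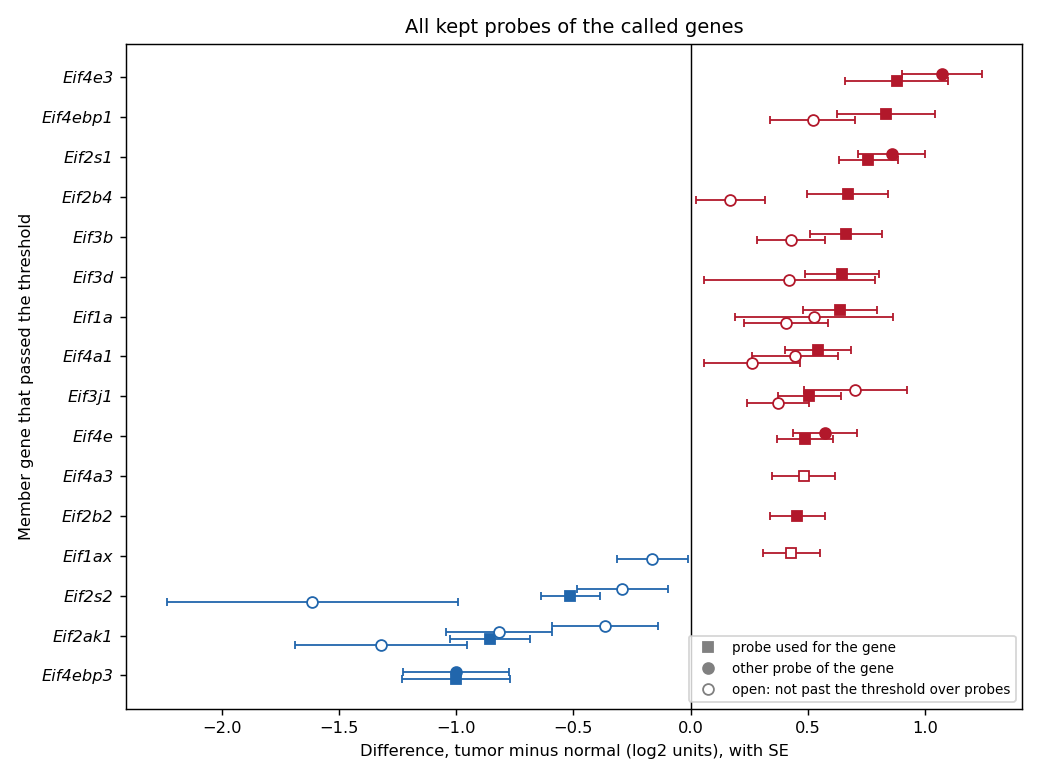
Difference (tumor minus normal, log2 units, with SE) of every probe that passed the filter for the 16 called members, with squares for the probe used for the gene and circles for the others. Filled symbols passed the threshold over all kept probes. Eif2s1, Eif4e, Eif4e3 and Eif4ebp3 have both probes filled, and Eif1ax has 1 probe on each side of 0. An Eif1a circle belongs to the probe placed on chromosome 12.

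Genes next to initiation in the pathway were counted in lists. Of 9 genes listed under elongation, all with Eef names though not all elongation factors, 2 rose and 1 fell (median difference 0.22). Eef1e1, a scaffold of tRNA synthetases, rose by 0.98 ± 0.23 (adjusted p = 0.0323; 0.0416 in the blocked fit). Eef1d, an exchange factor of eEF1A, rose by 0.52 ± 0.14 (adjusted p = 0.0486; 0.0819 in the blocked fit). Eef2k, the kinase that inhibits eEF2, fell, with a difference of -0.69 ± 0.19 (adjusted p = 0.0486; 0.09 in the blocked fit). None of the 4 termination and recycling genes or 6 poly(A)-binding genes passed (medians 0.22 and 0.12). Of 13 other helpers of initiation, 2 rose (median -0.05). These were Bzw2, by 1.09 ± 0.23 (adjusted p = 0.0267; 0.0531 in the blocked fit), and Bzw1, by 0.55 ± 0.15 (adjusted p = 0.045; 0.0611 in the blocked fit), both proteins that bind eIF2 and compete with eIF5.

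Signalling genes that act on the factors were split. Of 14 mTOR and MNK genes, 1 rose and 1 fell (median -0.28). Ddit4, an inhibitor of mTOR complex 1, measured 16.71, 17.26, 16.96 and 16.82 in tumors 1 to 4 and 15.79, 15.85, 16.36 and 15.45 in the normals, and rose by 1.08 ± 0.22 (2.11-fold; adjusted p = 0.0245; 0.0467 in the blocked fit). Tsc1, another inhibitor of mTOR complex 1, measured 9.72, 9.93, 9.46 and 10.22 in the tumors and 11.19, 11.25, 10.29 and 11.29 in the normals, where normal 3 came within 0.1 of tumor 4. Tsc1 fell by 1.17 ± 0.27, or 2.25-fold (adjusted p = 0.033; 0.038 in the blocked fit).

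Of 11 targets of the eIF2 kinase pathway, the integrated stress response, 4 rose and none fell (median 0.28). Trib3, a pseudokinase, measured 10.01, 10.68, 10.62 and 10.42 in tumors 1 to 4 and 9.06, 8.85, 9.37 and 9.06 in normals 1 to 4. All tumors were above all normals by a wide gap. Trib3 rose by 1.34 ± 0.19 (2.54-fold; adjusted p = 0.0149; 0.038 in the blocked fit). Asns, asparagine synthetase, rose by 0.95 ± 0.21 (adjusted p = 0.028; 0.0654 in the blocked fit) and the transcription factor Atf5 by 0.47 ± 0.12 (adjusted p = 0.0432; 0.0924 in the blocked fit). Chac1, a glutathione-degrading enzyme named after its values were seen, rose by 1.14 ± 0.30 (adjusted p = 0.0456; 0.038 in the blocked fit). Atf4 itself differed by 0.35 ± 0.16 and did not pass.

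In the Myc network, 2 of 8 genes rose and 1 fell (median 0.07). Myc measured 13.95, 13.86, 13.31 and 12.82 in tumors 1 to 4 and 12.33, 12.50, 12.72 and 12.24 in normals 1 to 4. The groups did not overlap, with tumor 4 within 0.2 of normal 3. Myc rose by 1.04 ± 0.27 (2.05-fold; adjusted p = 0.0438; 0.0623 in the blocked fit). Mycl, its relative, rose by 1.44 ± 0.38 (adjusted p = 0.0453; 0.0607 in the blocked fit), although normal 3 at 14.09 was above tumor 4 at 13.84. Mxd1, which competes with Myc for Max, differed by -0.89 ± 0.22 and fell (adjusted p = 0.0394; 0.0558 in the blocked fit).

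Cell type markers also moved with the tissue, and in bulk RNA fewer cells of a type and less RNA per cell cannot be told apart. Of 8 epithelial markers 2 fell and none rose, and their mean level was 16.95 to 17.24 in tumors and 17.29 to 17.72 in normals. Of 8 distal colon markers tested 5 fell and none rose (13.45 to 14.34 in tumors, 14.89 to 15.10 in normals). All 6 neutrophil markers rose (11.50 to 13.30 in tumors, 6.42 to 10.31 in normals), as did 4 of 6 macrophage markers (12.17 to 12.24 against 10.33 to 11.29) and 2 of 5 T cell markers (9.59 to 10.20 against 8.69 to 9.33). Of 6 proliferation genes, 2 rose, with means of 12.79 to 13.38 in tumors and 12.57 to 13.18 in normals. Of 4 endothelial markers 1 rose, and of 11 small intestine markers 1 rose and 1 fell. No marker of B cells, smooth muscle, fibroblasts or enteric neurons and glia passed. In the blocked fit, no epithelial, 3 distal colon and 1 small intestine marker fell, and 5 neutrophil, 4 macrophage, 2 T cell and 1 endothelial marker rose, with no rise among the proliferation or small intestine genes. Among the neutrophil markers, Cxcr2 and Mmp8 lay under the detection limit in 3 normals each, and every other one was above it in at least 3 of the 4. The part of these cells in the initiation factor differences was not tested.

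**Figure D5:**
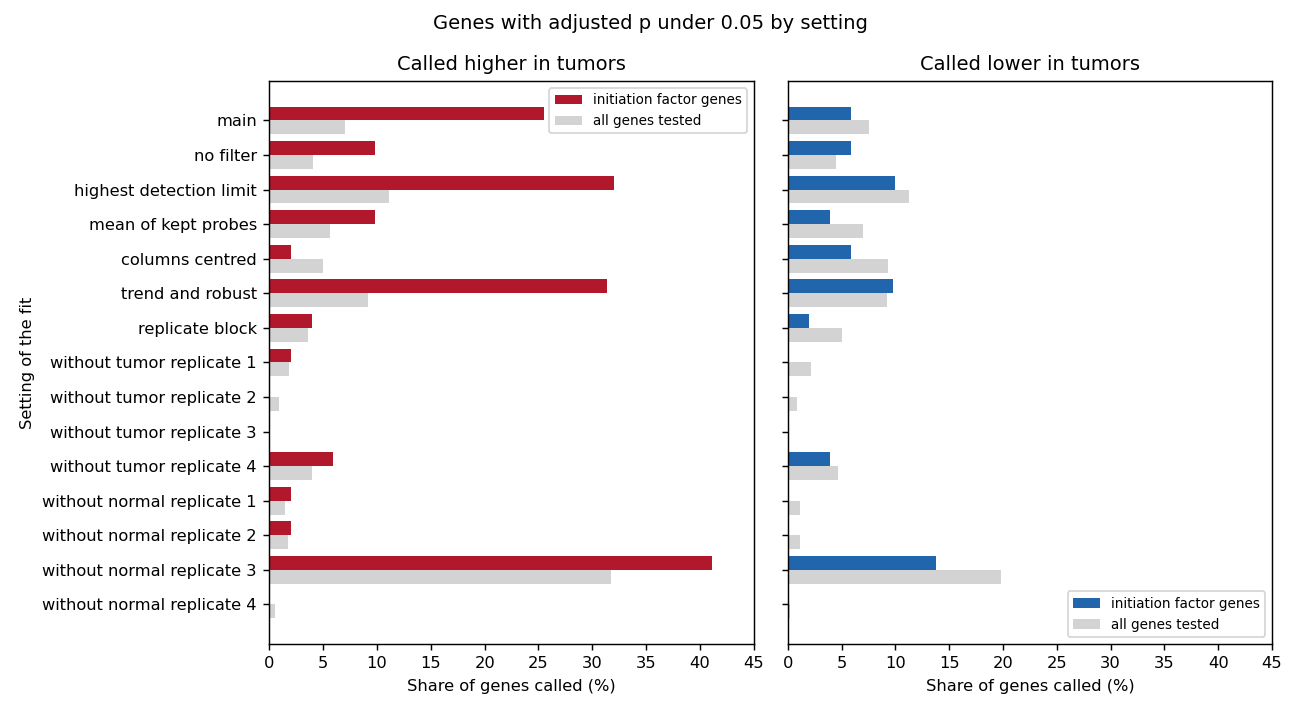
Share of genes called higher (left) and lower (right) in tumors at an adjusted p under 0.05, for the 51 initiation factor genes (coloured; 50 under the highest detection limit) and all genes tested (grey), in the main fit and in 14 alternatives on the authors' table. For higher calls the initiation factor share, 25.5% in the main fit against 7.00% of all genes, drops to 1.96% against 4.96% after centring and to 3.92% against 3.60% with the replicate block.

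By sample, the median over the 51 members of the level minus the gene's mean over all samples was 0.10, 0.24, 0.08 and 0.02 in tumors 1 to 4 and -0.13, -0.10, -0.12 and -0.15 in normals 1 to 4. The same median over all genes was 0.06 to 0.11 in the tumors and -0.11 to 0.08 in the normals. The members' median was thus lower in every normal than in any tumor, and tumor 4 was the tumor nearest to the normals. Normal 3, whose median over all genes was 0.08, lay within the range of the other normals in the median of the members, although it was the nearest normal in 9 of the 16 members called. How often it was the nearest over all genes was not counted.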

How the data were processed

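Total RNA was labelled with Cy3, per the labels, and scanned on Agilent arrays of 1 design. Per the file headers, the deposited scanner files give background-subtracted intensity per spot from Feature Extraction 9.5.1.1 (10.1.1.1 in the submitters' processing notes) and probe positions on mm8. The authors' deposited table holds log2 values with equal quantiles in all columns; neither scale nor normalisation is stated, and both were read from the values.

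The table was used under its own column labels. A probe was kept where it reached 5.59 in at least 4 of 8 columns (31871 probes). That limit was found per traced column, as the level under which 95% of the probes flagged as dim by the scanner software lay, and the median of the 4 was taken. Genes were named through RefSeq accessions or symbols. The brightest kept probe stood for a gene. limma 3.58.1 in R 4.3.3 (lmFit, eBayes, 2-sided) compared 4 tumors with 4 normals, after a check on simulated data, and p-values are Benjamini-Hochberg adjusted. Deviations of same-numbered samples correlated at 0.24, 0.36, 0.53 and 0.36, all above 0.1, although tumors 1 and 4 correlated slightly better with normals 3 (0.28) and 2 (0.38) than with their own numbers, and other pairs ran from -0.51 to 0.38. The numbers in the titles were treated as pairs in an alternative fit with a replicate block. The number of arrays limits precision. The p-values set the difference between groups against the spread among samples within them, which limma moderates over all genes.

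Members and lists were chosen with earlier results of these data known. The text names every member called, the largest and smallest difference of each role group, Eif4e and the 4E-binding proteins, up to 3 called genes per pathway list by lowest p, and Myc. Further genes that complete a role group were named after their values were seen. Alternatives changed the source of values, filter, probe choice, centring, variance model, block and samples.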

Additional observations from a re-analysis of the deposited data

Results flagged for a closer look

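Within groups of 4, the highest or lowest sample was compared with the others by Dixon's criterion, which chance meets in about 1 of 20 groups; 4 of the 64 groups checked met it. Tumor 2 was far above the other tumors in Eif3b, at 16.17 against 15.68 to 15.75, and in Eif4enif1, at 11.82 against 11.49 to 11.51. One probe of Eif3c that was not used for the gene was high in tumor 2, at 16.26 against 16.09 to 16.11. The same probe was low in normal 2, at 3.26 against 15.99 to 16.38 in the other normals.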

How the results depend on the processing

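On the authors' table, the 16 called members kept their direction under centring and under the mean of kept probes. They also kept it in the 4 traced columns alone and in all 8 fits that left out a sample. Groups that do not overlap ensure the direction in such subsets by themselves. Most of the calls, however, were not kept. Members called higher numbered 5 with no filter (all genes, 4.08%), 5 with the mean of kept probes (5.62%), 1 after centring (4.96%), 2 with the replicate block (3.60%; 1 lower) and 0 in the traced columns alone, where none of all genes passed (0 lower; 8 members and 4817 genes at an unadjusted p under 0.05 in limma). Under the highest detection limit 16 members were called higher (all genes, 11.1%) and 5 lower (all genes, 11.3%). With limma's trend and robust settings 16 were called higher (all genes, 9.19%) and 5 lower (all genes, 9.19%). Leaving out 1 sample gave 0 to 21 higher and 0 to 7 lower calls. The pairing through the block ended 13 of the 16 calls. The members' median was 0.16 with the mean of kept probes, 0.099 after centring and 0.089 over all kept probes.

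The scanner files as filed, whose labels disagree with the table's columns, gave 0 higher and 0 lower calls, over the members as over all genes, with or without the slide as a block and with normexp correction (0, 0 and 1 members at an unadjusted p under 0.05 in limma). The members' median was -0.062, also with the slide block, and -0.068 with normexp. Differences were above 0 for 14 of 51 members as filed (27.5%, all genes 57.9%) and for 15 with normexp (29.4%, all genes 51.3%). The lists of turned signs below cover only the 31 members and 13 other genes named by the rule given above. Other members turned too as filed, among them Eif2b5 (-0.060), Eif3g (-0.12), Eif3h (-0.042), Eif3k (-0.15), Eif4g2 (-0.19) and Eif5a (-0.051). As filed, with the same differences under the slide block, signs turned for Ago2 (0.13), Eif1ax (-0.062), Eif2b1 (-0.38), Eif2b2 (-0.070), Eif2b4 (-0.037), Eif2s1 (-0.0084), Eif3j1 (-0.066), Eif3l (-0.16), Eif4a3 (-0.10), Eif4e (-0.13), Eif4e2 (-0.0048), Eif4g1 (-0.11), Eif4g3 (-0.018), Atf5 (-0.11), Bzw2 (-0.070), Ddit4 (-0.13), Eef1d (-0.048), Eef1e1 (-0.13) and Mxd1 (0.11). With normexp they turned for Ago2 (0.12), Eif1 (-0.11), Eif1ax (-0.054), Eif2b1 (-0.36), Eif2b2 (-0.095), Eif2b4 (-0.047), Eif3j1 (-0.044), Eif3l (-0.24), Eif4a1 (-0.049), Eif4a3 (-0.096), Eif4e (-0.12), Eif4e2 (-0.019), Eif4g1 (-0.099), Eif4g3 (-0.015), Atf5 (-0.12), Bzw2 (-0.082), Ddit4 (-0.17), Eef1d (-0.090), Eef1e1 (-0.099) and Mxd1 (0.076).

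On the table and among the same named genes, signs of small differences turned after centring (Eif2ak3 -0.11, Eif3l -0.10, Eif4g1 -0.12, Eif4h -0.094), with the mean of kept probes (Eif2ak3 -0.57, Eif4enif1 -0.15) and in the traced columns alone (Eif3l -0.040, Eif4g1 -0.071). Over the fits that left out 1 sample, Ago2 ran from -0.17 to 0.0068, Eif2ak3 from -0.032 to 0.093, Eif2b3 from -0.020 to 1.01, Eif3l from -0.063 to 0.10, Eif4g1 from -0.064 to 0.12 and Eif4h from -0.012 to 0.067. The cause of these changes was not tested, and the dim Eif2b3 probe is limited by its signal over background.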
